A study of Mus musculus with 6 samples.

Results

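The 39 genes described here encode proteins that copy DNA and supply its building blocks. They cover origin recognition and licensing, helicase activation, the sliding clamp and its loader, the replicative polymerases and primase, single-stranded DNA binding, Okazaki fragment maturation, deoxynucleotide supply, and the G1/S regulators cyclin E1, cyclin E2, and E2F1. They were chosen by name, as every gene of a list of 39 symbols found among the 34844 gene names of the array. All 39 were found, on 50 probes.

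The RNA came from murine bone marrow–derived macrophages (BMDMs), which are grown from marrow cells in culture, and was read on 1-color Agilent arrays. USP7 is a deubiquitinase, an enzyme that removes ubiquitin from other proteins, and HBX41,108 is a small molecule that blocks its catalytic activity. The arrays ask how the response to lipopolysaccharide (LPS), the bacterial ligand of TLR4, is altered when USP7 is inhibited. All marrow came from wild-type female C57BL/6 mice aged 6 to 8 weeks according to the labels (the methods of the study give an older range). Cells were differentiated for 7 days in medium conditioned by L929 cells. By the methods of the study, cells were then replated without this medium and had a night of rest before the experiments. The first group was left untreated. The second received LPS for 4 h, and the third received 10 µM HBX41,108 for 30 min and then LPS for 4 h (LPS+USP7i). The dose of LPS was 100 ng/ml in the description of the series, whereas the protocol in the labels gives the same figure per µl. Whether the untreated and LPS groups received the solvent of the inhibitor is not given in the sources used here, so solvent and inhibitor cannot be told apart. Each group had 2 samples from independent experiments, and 6 arrays limit the precision of every value.

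A cell that is to divide licenses its origins in G1 phase, when the origin recognition complex, CDC6, and CDT1 load the MCM2–7 helicase onto DNA. At the start of S phase, cyclin E with its kinase and the GINS complex turn the loaded helicase on, and polymerases, clamp, and clamp loader then assemble at the fork. Many of these genes are transcribed by E2F factors and peak around the G1/S boundary, and macrophages grown in CSF-1 divide in culture and leave the cycle when activated.

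The 6 arrays shared 1 slide and 1 scan. Treatment and position on the slide cannot be told apart. The headers give each array 2 position numbers without saying which is the row. The second was 1 for untreated samples, 2 for LPS, and 4 for LPS+USP7i, and the first was 1 or 2, as the replicate number. Each array held 59305 spots other than controls. Those well above background numbered 27467 and 27126 on the untreated arrays, 25223 and 25002 on the LPS arrays, and 26415 and 25290 on the LPS+USP7i arrays. The 9 macrophage markers (*Csf1r* the brightest) were all well above background on every array. Their signals summed to 733375 and 724364 on the untreated arrays, 723994 and 748849 on the LPS arrays, and 629533 and 588067 on the LPS+USP7i arrays. Of these 9 markers, 2 were lower and 1 was higher with LPS, 2 were lower with LPS+USP7i than with LPS, and 2 were lower with LPS+USP7i than in untreated cells. The share lower was 22.2% each time. Among all genes well above background on all arrays it was 23.9%, 7.44%, and 16.3%. The share higher with LPS was 11.1%, against 14.1% of those genes.

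Markers of other marrow cells were also read. Of 7 myeloid progenitor markers, 4 were well above background on all arrays (*Elane* the brightest) and *Flt3* was on none. Their summed signal was 3891 and 4089 on the untreated arrays, 3170 and 3166 on the LPS arrays, and 3957 and 4266 on the LPS+USP7i arrays. A sum weighs bright markers most. Taken singly, 5 of the 7 had differences below 0 between LPS+USP7i and LPS (median −0.94) and 6 between LPS+USP7i and untreated cells (median −1.23), dim markers included. With limma 0 of the 7 passed in any comparison, although at an unadjusted p under 0.05 1 was lower with LPS and 1 was higher with LPS+USP7i than with LPS. Of 6 neutrophil markers, 3 were well above background on all arrays (*Mmp8* the brightest) and *Retnlg* on none, and 0 passed with limma or at an unadjusted p under 0.05. Their signals summed to 5232 and 6641 on the untreated arrays, 4409 and 6094 on the LPS arrays, and 6160 and 7383 on the LPS+USP7i arrays, whereas 4 of the 6 had differences below 0 between LPS+USP7i and LPS (median −0.38). The lists for other lineages had 2 of 4 B cell markers (*Cd79b* the brightest), 1 of 4 T or NK cell markers (*Cd3e*), 1 of 3 dendritic cell markers (*Siglech*), 0 of 4 erythroid markers, and 0 of 4 fibroblast markers well above background on all arrays. *Zbtb46*, a dendritic cell marker, rose with LPS and *Epor*, an erythroid marker, fell, the first from and the second to a level not well above background. The dendritic cell markers summed to 45034 and 38036 on the untreated arrays, 25322 and 24833 on the LPS arrays, and 51398 and 34650 on the LPS+USP7i arrays, whereas 2 of the 3 had differences above 0 with LPS and 2 had differences below 0 between LPS+USP7i and LPS. The B cell markers summed to 1043 and 656 on the untreated arrays and 1137 and 518 on the LPS arrays. On the LPS+USP7i arrays their sums were 686 and 281. All 4 B cell markers had differences below 0 between LPS+USP7i and LPS (median −0.80), and 0 passed with limma. The part of other cells in the results below was not tested.

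Values below are normalized log2 signals, differences are on the log2 scale, and a gene was called when limma gave an adjusted p under 0.05 over all probes. Where several probes read a gene, the one of highest mean signal stands for it. The p values set a difference against the spread between samples of the same group, taken over the 3 groups. The replicate number was not part of this fit. Of the 39 genes, 37 were well above background on all 6 arrays. *Cdc6* was not well above background on the LPS arrays, and *Ccne2* on no array.

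The first comparison asks what LPS does to these genes. With LPS, 22 of the 39 genes were lower than in untreated BMDMs, against 12.8% of all genes tested. The number higher was 2 (*Tyms* and *Ccne1*), against 7.98% of all genes. In percentages, 56.4% of the 39 were lower and 5.13% were higher. The median difference was −0.90 over the 39 genes (−0.96 for replicate 1 and −0.84 for replicate 2) and 0.002 over all genes. Of the 37 genes well above background on all arrays, 21 were lower and 2 higher, with a median of −0.90. Among all 15621 genes of that kind on the array, 23.9% were lower and 14.1% were higher, with a median of −0.18. RNA came from whole cultures, so fewer cycling cells and less of these transcripts per cell cannot be told apart.

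The calls over all genes depended on the scaling. Quantile normalization called 4446 genes lower and 2779 higher with LPS. Scaling each array to its 75th percentile called 4057 lower and 12126 higher, and it moved the median of all genes to 0.40. Under that scaling 21 of the 39 genes were lower and 3 were higher, with a median of −0.67, which lies 1.07 below that of all genes. No call of the 39 changed sign, and 4 uncalled genes did (*Gins3*, *Pcna*, *Pola1*, and *Ccne2*). The number of genes called lower was 9 without untreated replicate 1, 8 without untreated replicate 2, 12 without LPS replicate 1, and 15 to 19 without any 1 of the others. The number higher with limma was 0 without any 1 of the untreated or LPS arrays, where 3 or 4 were higher at an unadjusted p under 0.05.

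**Figure D1:**
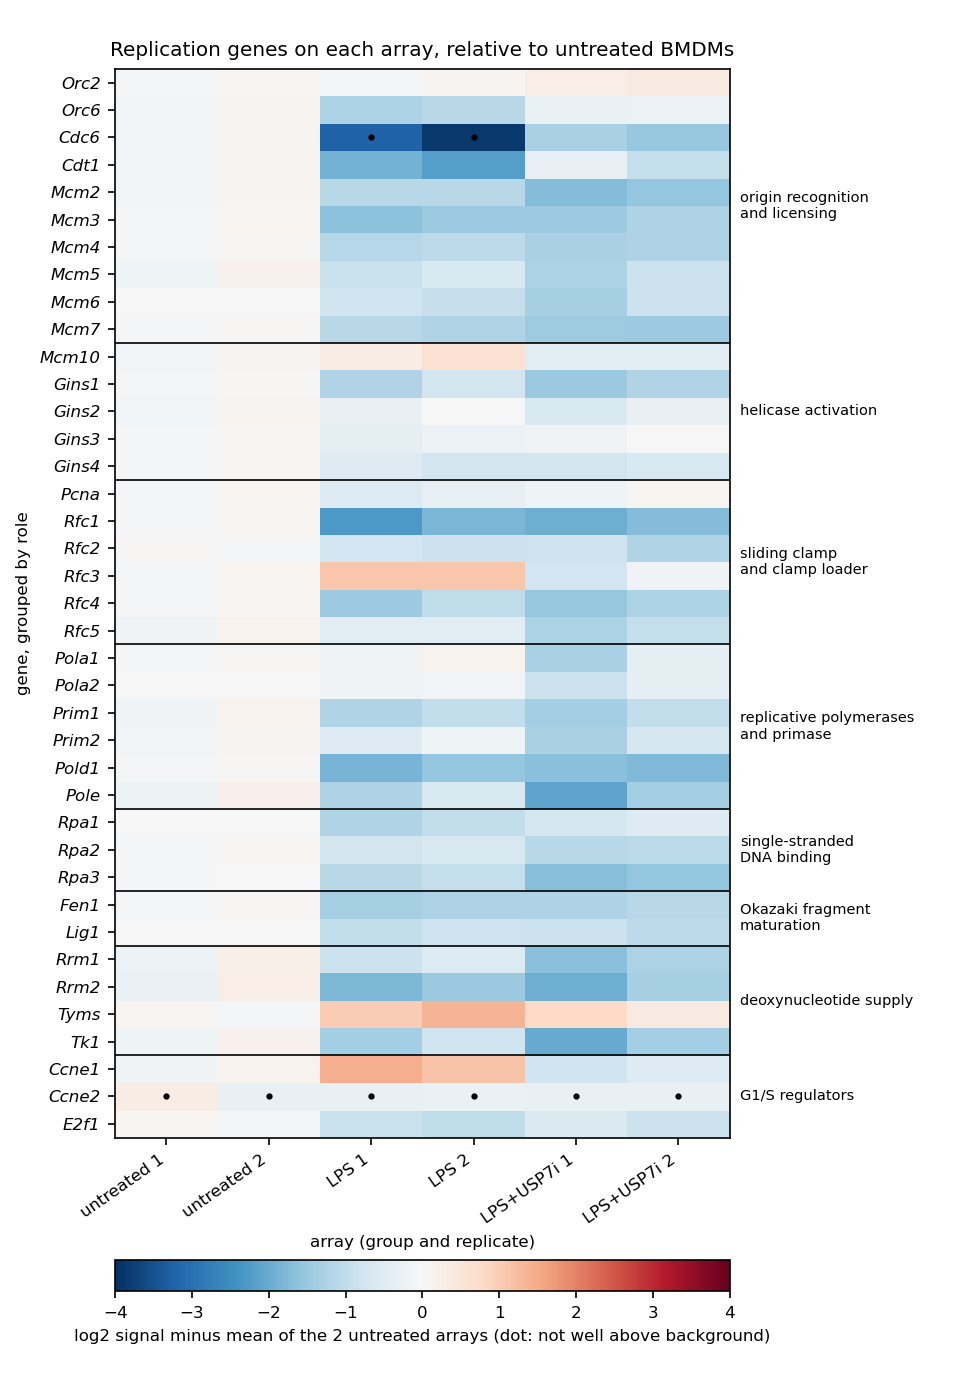
Normalized log2 signal of each of the 39 genes on each of the 6 arrays minus the mean of the 2 untreated arrays of that gene (color scale, log2 units), with genes grouped by role. Most genes are lower on both LPS arrays. *Tyms* and *Ccne1* are higher on both and were called, and *Rfc3* and *Mcm10* are higher on both but did not pass. Dots mark groups in which a gene was not well above background (*Cdc6* with LPS and *Ccne2* throughout). With 75th percentile scaling *Gins3*, *Pcna*, *Pola1*, and *Ccne2* turn to slightly higher with LPS.

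The second comparison asks what the inhibitor changed in LPS-stimulated cells. Relative to LPS alone, 4 of the 39 genes were lower with LPS+USP7i (*Mcm10*, *Rfc3*, *Rpa3*, and *Ccne1*), against 4.28% of all genes. The number higher was 2 (*Orc6* and *Cdc6*), against 5.51% of all genes. The share higher, 5.13%, was near that of all genes, and the share lower was 10.3%. The median difference was −0.21 for the 39 genes and 0.001 for all genes, and 4 of the 37 genes well above background on all arrays were lower and 1 was higher, with a median of −0.25. These shares were 10.8% and 2.7%, against 7.44% lower and 9.74% higher (median 0.06) for all genes well above background on all arrays. With 75th percentile scaling the median was −0.30 for the 39 genes and 0.003 for all genes. Without any 1 of the untreated or LPS arrays 0 genes were called lower, although 7 to 9 were at an unadjusted p under 0.05. The count was 1 without LPS+USP7i replicate 1. The number called higher was 1 without LPS replicate 1 or LPS+USP7i replicate 2 and 0 without any 1 of the other arrays, with 4 to 6 higher at an unadjusted p under 0.05. In limma fits of only the 2 groups compared, 0 genes were lower and 0 were higher, against 9 and 4 at an unadjusted p under 0.05. That fit called 0 genes of the whole array, with a smallest adjusted p of 0.0561.

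The third comparison asks how cells given both agents differed from untreated ones and shares its untreated arrays with the first and its inhibitor arrays with the second. In it 22 of the 39 genes were lower, against 8.72% of all genes. None was called higher (0 of 39 with limma, 1 at an unadjusted p under 0.05), against 6.15% of all genes. The median difference was −1.07, against −0.002 for all genes. Of the 37 genes well above background on all arrays, 21 were lower (56.8%), with a median of −1.07. Among all genes of that kind, 16.3% were lower and 10.8% were higher, with a median of −0.08. With 75th percentile scaling 25 were lower, the median was −0.92, and the median of all genes was 0.43, which is 1.35 higher. All genes split into 3040 lower and 2144 higher here, and into 3368 lower and 12168 higher with that scaling. Fits of only these 2 groups called 14 genes lower. Without untreated replicate 1 or 2 the number lower was 6 or 4, without LPS+USP7i replicate 1 it was 11, and without LPS replicate 1 or 2 it was 14. In all, 11 of the 39 genes passed in none of the 3 comparisons.

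**Figure D2:**
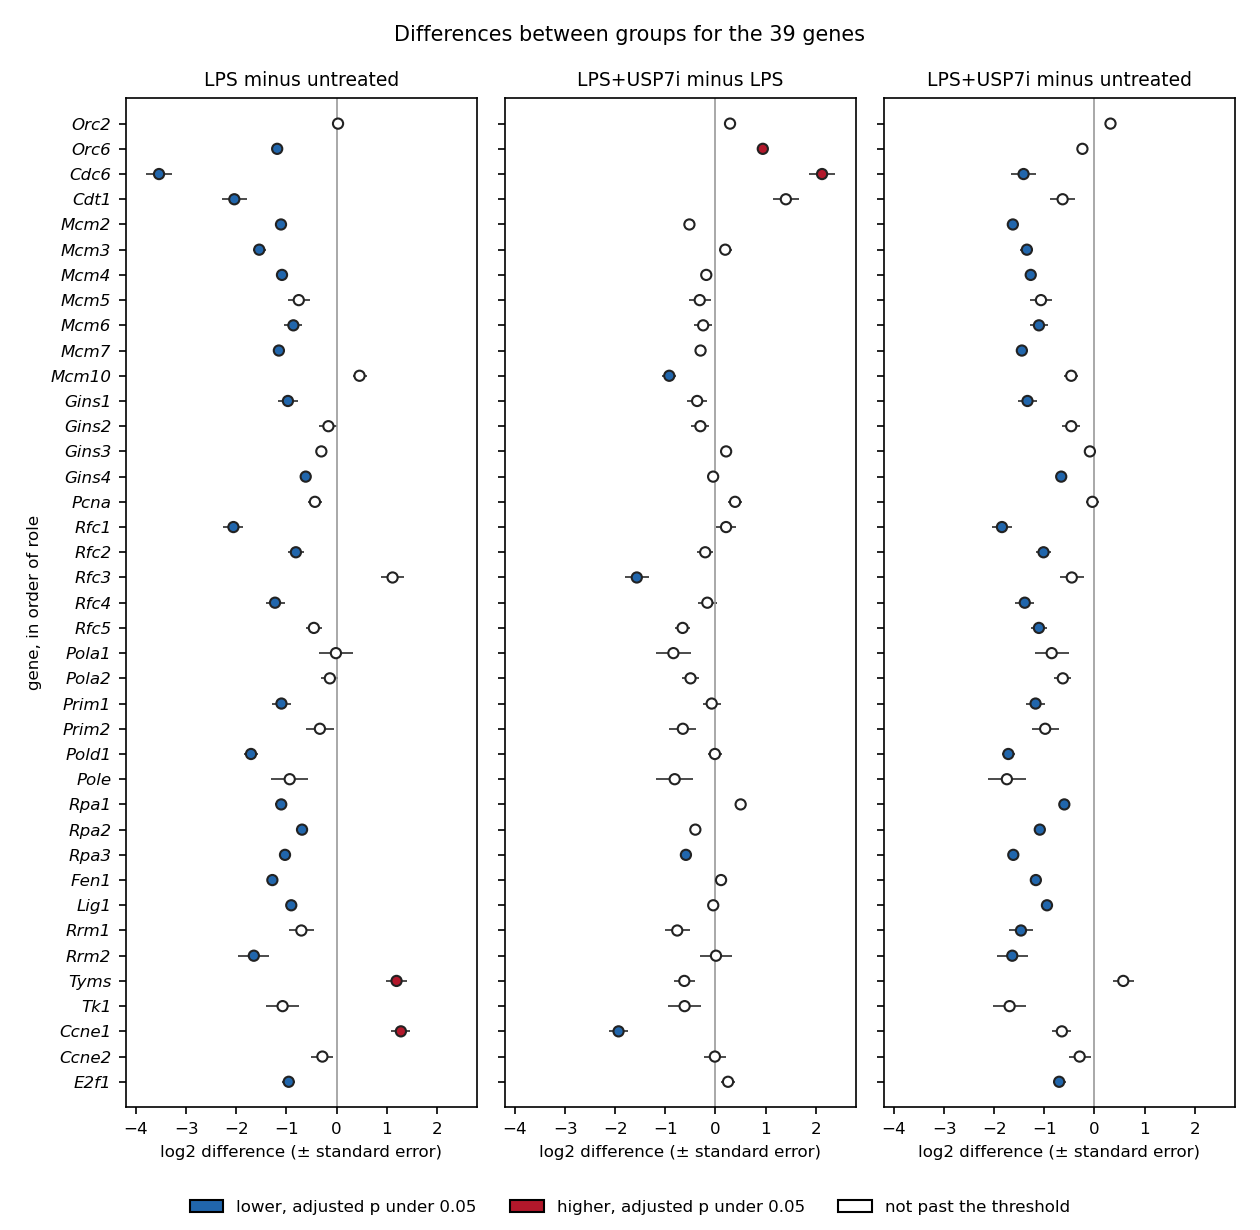
Log2 difference with its standard error for each of the 39 genes in the 3 comparisons, each of 2 arrays against 2, where filled circles passed an adjusted p of 0.05 (blue lower, red higher). The LPS panel holds 22 blue circles and the inhibitor panel 4 blue and 2 red ones, and with 75th percentile scaling the sign of *Gins3*, *Pcna*, and *Ccne2* turned in both comparisons with untreated cells, that of *Pola1* in the LPS panel, and that of *Rrm2* in the inhibitor panel.

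Licensing factors bring the helicase to DNA. ORC6 is the smallest subunit of the origin recognition complex, and the probe of *Orc6* lay at chr8:87831769-87831828 (mm9, the build of the probe positions in the files). Its signal was 10.73 and 10.97 on the untreated arrays, 9.60 and 9.74 on the LPS arrays, and 10.60 and 10.62 on the LPS+USP7i arrays. Both LPS arrays lay below every other array, and the inhibitor arrays lay just under the untreated ones. *Orc6* fell by 1.18 with LPS (standard error 0.11, adjusted p = 0.00803), which is 2.27-fold. It was 0.94 higher with LPS+USP7i than with LPS (adjusted p = 0.0257). Against untreated cells the difference with LPS+USP7i was −0.24, with a 95% interval of −0.55 to 0.07 (adjusted p = 0.31).

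CDC6 is the ATPase that joins the recognition complex to load the helicase. The signal of *Cdc6*, read at chr11:98782986-98783045, was 6.87 and 7.11 on the untreated arrays, 3.76 and 3.13 on the LPS arrays, and 5.68 and 5.46 on the LPS+USP7i arrays. The 3 groups did not overlap, with LPS lowest and untreated cells highest. Because the LPS arrays were not well above background, the change is given as a bound, with those 2 arrays set to the dimmest probe that was well above background there. *Cdc6* was at least 5.66-fold lower with LPS (adjusted p = 0.00518) and at least 2.12-fold higher with LPS+USP7i than with LPS (adjusted p = 0.0265). With LPS+USP7i it was below untreated cells (log2 difference −1.41, standard error 0.26, adjusted p = 0.0424). A second probe for *Cdc6* read 6.13 and 6.13, 2.33 and 2.08, and 4.83 and 4.57 in the same order of groups. The order of levels was the same, with 1 of 2 inhibitor arrays well above background. By this probe *Cdc6* was at least 3.12-fold lower with LPS.

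CDT1 brings the MCM2–7 complex to the recognition complex and is destroyed once S phase begins. The *Cdt1* probe at chr8:125096893-125096952 read 13.22 and 13.42 on the untreated arrays, 11.43 and 11.13 on the LPS arrays, and 12.99 and 12.38 on the LPS+USP7i arrays. The LPS arrays were the lowest, and both inhibitor arrays lay between them and the untreated arrays. *Cdt1* fell by 2.04 with LPS (standard error 0.26, adjusted p = 0.0143), 4.11-fold. The 1.40 by which it was higher with LPS+USP7i than with LPS did not pass (adjusted p = 0.0553), although it did in 7 of 17 alternatives (adjusted p from 0.00696 to 0.178). The difference from untreated cells was −0.64 with the inhibitor (95% interval −1.34 to 0.07, adjusted p = 0.239). ORC2 is a core subunit of the recognition complex. *Orc2* read 7.07 and 7.22 on the untreated arrays, 7.10 and 7.25 on the LPS arrays, and 7.42 and 7.51 on the LPS+USP7i arrays, with the untreated and LPS arrays overlapping and the inhibitor arrays above both. Its differences of 0.03, 0.29, and 0.32 in the 3 comparisons did not pass (adjusted p = 0.951, 0.188, and 0.137).

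The calls with LPS of *Orc6* and *Cdc6* held without any single array. The *Cdt1* call was lost without any 1 of the 4 untreated and LPS arrays (adjusted p = 0.0585 to 0.0837). For LPS+USP7i against LPS, *Orc6* lost its call whichever array was left out (adjusted p = 0.0629 to 0.096), and *Cdc6* did so without any array except LPS replicate 1 (adjusted p = 0.0521 to 0.101), while the differences stayed above 0. The *Cdc6* call for LPS+USP7i against untreated cells was lost without any 1 of the untreated or LPS+USP7i arrays (adjusted p = 0.116 to 0.177). With the replicate number as a block neither inhibitor call of *Cdc6* passed.

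**Figure D3:**
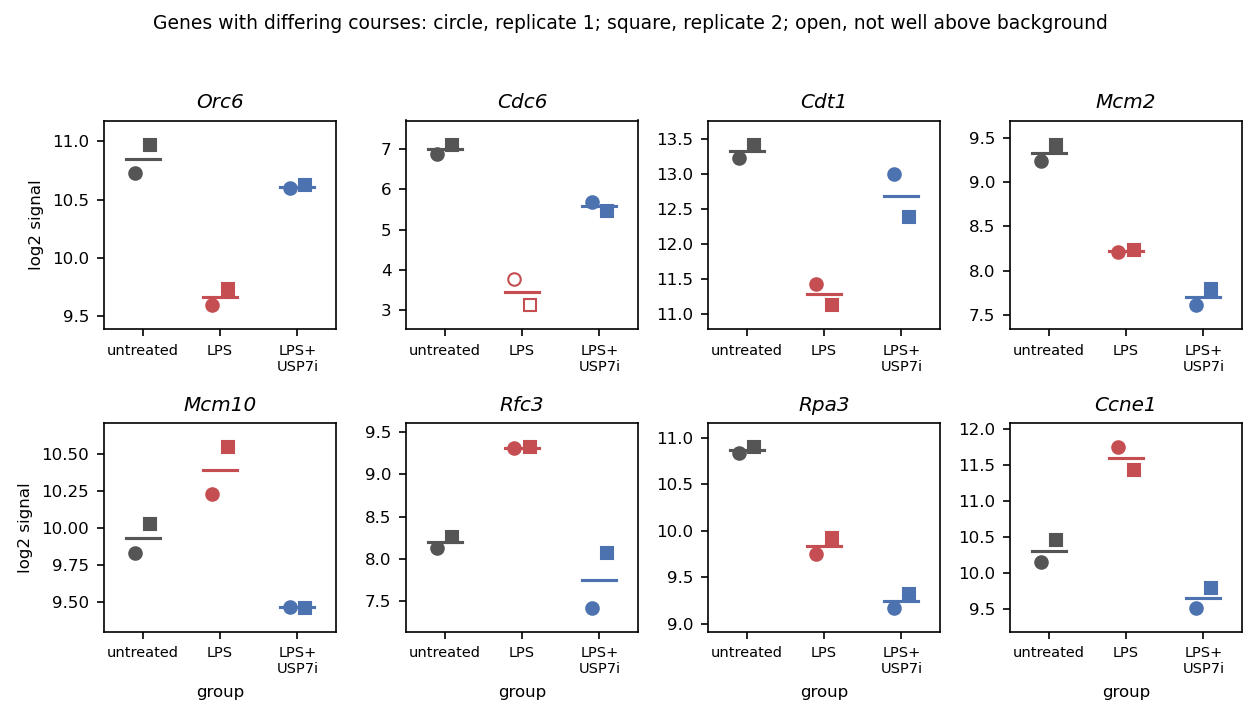
Normalized log2 signal of 8 genes on each array (circle, replicate 1; square, replicate 2; open symbol, not well above background) by group, with a line at the group mean; each panel has its own axis. *Orc6*, *Cdc6*, and *Cdt1* are lowest with LPS, *Mcm2* and *Rpa3* step down from untreated to LPS to LPS+USP7i, and *Mcm10*, *Rfc3*, and *Ccne1* are highest with LPS.

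MCM2 to MCM7 form the ring-shaped helicase that unwinds DNA. Of these 6 genes, 5 fell with LPS (*Mcm2*, *Mcm3*, *Mcm4*, *Mcm6*, and *Mcm7*), and with limma 0 passed in either direction between LPS+USP7i and LPS. At an unadjusted p under 0.05, *Mcm2* and *Mcm7* were lower there. Of all 10 origin and licensing genes, 8 (80%) were lower with LPS, against 12.8% of all genes and 23.9% of those well above background on all arrays. *Mcm2* read 9.24 and 9.43 on the untreated arrays, 8.21 and 8.23 on the LPS arrays, and 7.61 and 7.79 on the LPS+USP7i arrays. The groups formed 3 separate steps, with untreated cells highest and LPS+USP7i lowest. *Mcm2* fell by 1.11 with LPS (standard error 0.11, adjusted p = 0.00838). It was −0.52 from LPS with the inhibitor (adjusted p = 0.0698) and fell by 1.63 from untreated cells (adjusted p = 0.00697), 3.09-fold.

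*Mcm3* had the largest fall of the helicase subunits with LPS. It read 12.46 and 12.61 on the untreated arrays, 10.91 and 11.08 on the LPS arrays, and 11.07 and 11.31 on the LPS+USP7i arrays, so all 4 stimulated arrays lay below the untreated ones and the inhibitor arrays overlapped with the LPS arrays. Its difference from untreated cells was −1.54 with LPS (standard error 0.13, adjusted p = 0.00639) and −1.35 with LPS+USP7i (adjusted p = 0.0115). *Mcm4* read 12.31 and 12.37 on the untreated arrays, 11.21 and 11.30 on the LPS arrays, and 11.04 and 11.09 on the LPS+USP7i arrays. Its stimulated arrays all lay far below the untreated ones, those with the inhibitor lowest. The differences were −1.09 with LPS and −1.27 with LPS+USP7i (standard error 0.07, adjusted p = 0.0043 and 0.00579). *Mcm7* read 12.02 and 12.13 on the untreated arrays, 10.98 and 10.87 on the LPS arrays, and 10.64 and 10.61 on the LPS+USP7i arrays. Again the untreated arrays were apart, and the inhibitor arrays were the lowest. *Mcm7* differed by −1.15 with LPS and by −1.45 with LPS+USP7i (standard error 0.08, adjusted p = 0.00469 and 0.00579).

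*Mcm6* and *Mcm5* had smaller differences with LPS. *Mcm6*, read at chr1:130228178-130228237, gave 14.84 and 14.80 on the untreated arrays, 14.02 and 13.90 on the LPS arrays, and 13.48 and 13.95 on the LPS+USP7i arrays. Every stimulated array was below both untreated arrays, and LPS+USP7i replicate 2 lay between the LPS arrays. The difference was −0.86 with LPS (standard error 0.18, adjusted p = 0.0478) and −1.11 with LPS+USP7i (adjusted p = 0.033). With 75th percentile scaling *Mcm6* passed in neither comparison, and its LPS difference there was −0.26. Nor did it pass in either with the replicate number as a block. *Mcm5* read 11.49 and 11.84 on the untreated arrays, 10.78 and 11.05 on the LPS arrays, and 10.39 and 10.81 on the LPS+USP7i arrays, with the stimulated arrays below the untreated ones and overlapping each other. Its differences of −0.75 with LPS and −1.07 with LPS+USP7i did not pass (standard error 0.22, adjusted p = 0.109 and 0.0578), although both did with the replicate number as a block (adjusted p from 0.0144 to 0.346 and from 0.00443 to 0.207 over all alternatives). Between LPS+USP7i and LPS the 6 helicase genes differed by −0.52 (*Mcm2*) to 0.19 (*Mcm3*). The LPS calls of *Mcm2*, *Mcm3*, *Mcm4*, and *Mcm7* held without any single array, whereas that of *Mcm6* was lost without any 1 of the untreated or LPS arrays (adjusted p = 0.145 to 0.181). Against untreated cells with the inhibitor, *Mcm3* lost its call without either untreated array (adjusted p = 0.0593 to 0.0692) and *Mcm6* without any 1 of the untreated or LPS arrays (adjusted p = 0.0846 to 0.144).

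The promoters of the 39 genes were searched for short motifs known from replication genes. RefSeq windows (GRCm38.p6) of 250 bases before to 50 bases after the transcription start were found for 31 of the 39 genes. Those of *Mcm4*, *Ccne2*, *Gins1*, *Gins2*, *Gins4*, *Rfc2*, *Pole*, and *Prim2* were not in the table. The motifs were 4 words of 8 bases that E2F factors are known to bind (TTTCCCGC, TTTGGCGC, TTTCGCGC, and TTTGCCGC), which can overlap each other, and CCAAT, all on both strands. An E2F-type word was found for 11 of the 31 genes (35.5%), against 2.6% of the 27025 genes in the table. By window it was found in 11 of 36 (30.6%), against 2.26% of the 32851 windows of all genes. CCAAT was found for 19 of the 31 genes (61.3%), against 41.1% of all genes. It was found in 21 of the 36 windows (58.3%), against 37.4% of all windows. The genes compared were not matched for the base composition of their promoters. Of the 18 matched genes that fell with LPS, 7 held an E2F-type word, and of the 13 other matched genes 4 did. The 7 sequences given are the 200 bases before the start for each gene with an E2F-type word in that stretch, to show how the words lie. Of these genes, *Cdc6*, *Mcm6*, and *Mcm7* fell with LPS and *Mcm5*, *Gins3*, *Rfc3*, and *Pola1* were not called. They run 5′ to 3′ in the direction of transcription, and capitals mark the E2F-type words and CCAAT or their reverse complements.
Cdc6: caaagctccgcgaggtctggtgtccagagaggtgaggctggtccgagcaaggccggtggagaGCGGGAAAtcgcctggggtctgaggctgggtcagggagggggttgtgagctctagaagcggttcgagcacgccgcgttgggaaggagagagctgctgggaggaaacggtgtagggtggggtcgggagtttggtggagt
Mcm5: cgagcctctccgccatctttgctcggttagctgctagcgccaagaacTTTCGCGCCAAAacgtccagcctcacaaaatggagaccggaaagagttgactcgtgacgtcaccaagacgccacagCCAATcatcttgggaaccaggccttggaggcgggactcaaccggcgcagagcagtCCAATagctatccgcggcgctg
Mcm6: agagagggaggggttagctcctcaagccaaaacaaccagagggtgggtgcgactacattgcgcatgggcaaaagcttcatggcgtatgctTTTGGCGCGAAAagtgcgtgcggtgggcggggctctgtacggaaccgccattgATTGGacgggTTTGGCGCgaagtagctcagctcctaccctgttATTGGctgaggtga
Mcm7: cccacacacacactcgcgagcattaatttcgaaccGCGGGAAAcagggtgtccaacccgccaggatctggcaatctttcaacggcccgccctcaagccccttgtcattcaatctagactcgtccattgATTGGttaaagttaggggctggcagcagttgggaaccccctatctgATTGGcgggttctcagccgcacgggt
Gins3: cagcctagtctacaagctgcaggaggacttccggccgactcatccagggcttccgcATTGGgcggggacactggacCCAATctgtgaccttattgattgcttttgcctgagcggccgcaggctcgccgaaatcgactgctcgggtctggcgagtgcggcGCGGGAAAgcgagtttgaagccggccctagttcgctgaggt
Rfc3: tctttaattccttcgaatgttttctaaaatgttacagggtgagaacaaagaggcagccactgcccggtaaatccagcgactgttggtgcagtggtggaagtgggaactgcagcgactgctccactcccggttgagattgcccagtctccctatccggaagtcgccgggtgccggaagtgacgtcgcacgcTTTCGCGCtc
Pola1: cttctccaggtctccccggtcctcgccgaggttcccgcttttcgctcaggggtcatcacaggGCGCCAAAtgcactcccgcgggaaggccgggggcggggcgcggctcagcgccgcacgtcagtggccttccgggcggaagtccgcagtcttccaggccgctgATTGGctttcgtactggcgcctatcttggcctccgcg

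In GRCm38.p6 the *Cdc6* sequence is chr11:98907951-98908150 on the plus strand and has 1 E2F-type word at −138 to −131 from the start. The *Mcm5* sequence is chr8:75109309-75109508 (plus strand), with an overlapping pair of words from −153 to −142 and CCAAT at −77 and −22. That of *Mcm6* is chr1:128359706-128359905 (minus strand), with an overlapping pair from −110 to −99, another word at −47, and CCAAT in reverse at −57 and −14. For *Mcm7* it is chr5:138171884-138172083 (minus strand), with a word at −165 and CCAAT in reverse at −72 and −26. The *Gins3* sequence, chr8:95633359-95633558 (plus strand), has a word at −41 and CCAAT at −144 (in reverse) and −124. For *Rfc3* it is chr5:151651209-151651408 (minus strand), with a word at −10 and a further one past the start. The *Pola1* sequence is chrX:93632156-93632355 (minus strand), with a word at −138 and CCAAT in reverse at −37. A match describes letters in the window and says nothing of binding in these cells.

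**Figure D4:**
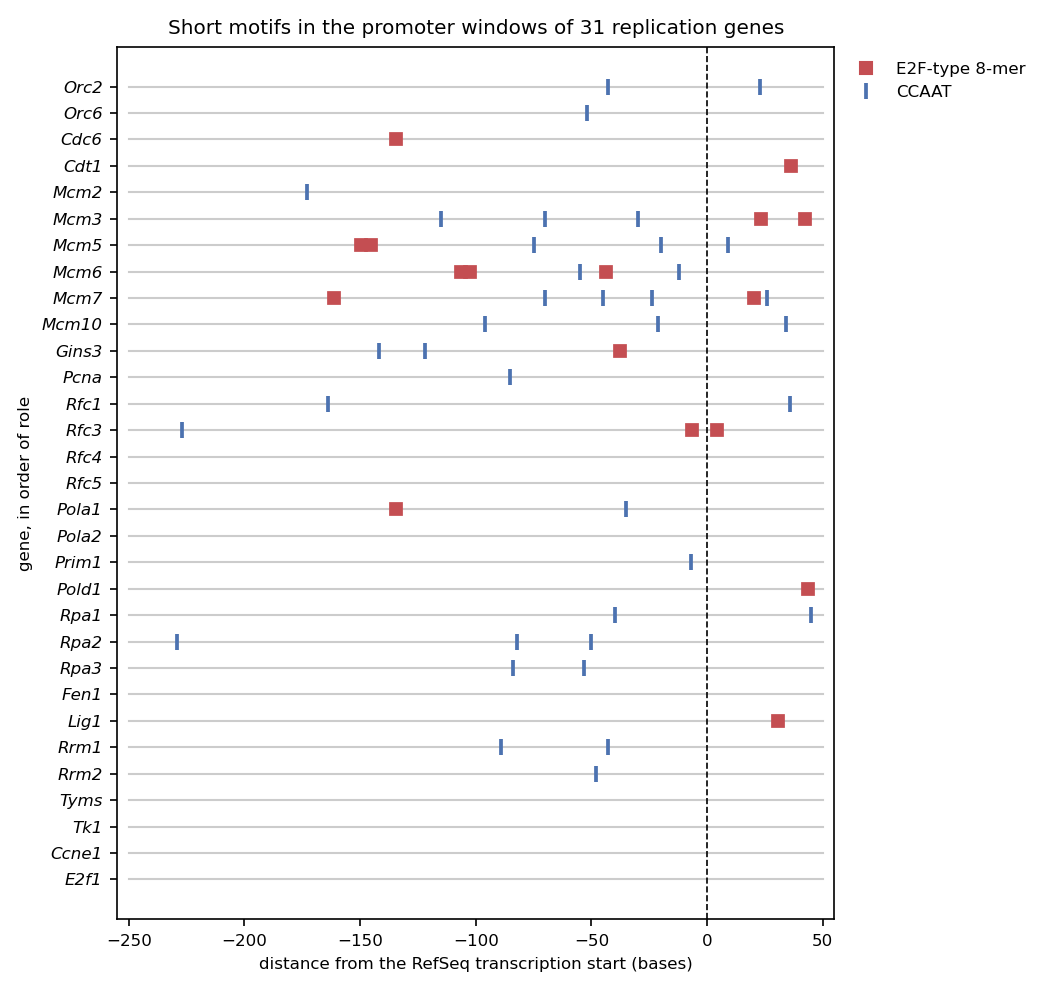
Positions of E2F-type words (red squares) and CCAAT (blue bars) in the RefSeq promoter windows of 31 genes, as distance in bases from the transcription start (dashed line), with the windows of a gene that has several overlaid. Words occur for 11 genes and CCAAT for 19, and the red squares lie on genes that fell with LPS such as *Cdc6* and *Mcm6* as well as on *Rfc3*, which did not.

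MCM10 and the 4-subunit GINS complex turn the loaded helicase into a moving one. Of these 5 genes, 2 fell with LPS (*Gins1* and *Gins4*), or 40%, against 12.8% of all genes and 23.9% of those well above background on all arrays. The number lower with LPS+USP7i than with LPS was 1 (*Mcm10*), or 20%, against 4.28% and 7.44%. The *Mcm10* probe at chr2:4911785-4911844 read 9.83 and 10.03 on the untreated arrays, 10.23 and 10.55 on the LPS arrays, and 9.47 and 9.47 on the LPS+USP7i arrays. The LPS arrays were the highest and the inhibitor arrays the lowest, with no overlap. *Mcm10* was 0.92 lower with LPS+USP7i than with LPS (log2 difference −0.92, standard error 0.14, adjusted p = 0.0395), 1.9-fold. It differed by 0.46 between LPS and untreated cells (adjusted p = 0.12) and by −0.46 between LPS+USP7i and untreated cells (adjusted p = 0.137), and neither passed. The call was lost without any 1 array (adjusted p = 0.061 to 0.135).

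*Gins1* read 9.84 and 9.92 on the untreated arrays, 8.69 and 9.14 on the LPS arrays, and 8.41 and 8.69 on the LPS+USP7i arrays. All stimulated arrays were below the untreated ones, and 1 array of each stimulated group had the same rounded value. Its difference was −0.97 with LPS (standard error 0.20, adjusted p = 0.0446) and −1.34 with LPS+USP7i (adjusted p = 0.0266). *Gins4* read 10.26 and 10.36 on the untreated arrays, 9.80 and 9.59 on the LPS arrays, and 9.59 and 9.71 on the LPS+USP7i arrays, also with the stimulated arrays below the untreated ones and overlapping each other. It differed by −0.62 and −0.66 from untreated cells (standard error 0.11, adjusted p = 0.0304 and 0.0322). The other subunits showed smaller differences. *Gins2* read 9.60 and 9.84 on the untreated arrays, 9.42 and 9.70 on the LPS arrays, and 9.10 and 9.42 on the LPS+USP7i arrays, with the LPS arrays overlapping both other groups and the inhibitor arrays below the untreated ones. Its LPS difference was −0.16 and that between LPS+USP7i and LPS −0.30 (adjusted p = 0.674 and 0.489). *Gins3* read 13.22 and 13.32 on the untreated arrays, 12.89 and 13.04 on the LPS arrays, and 13.12 and 13.24 on the LPS+USP7i arrays. Its LPS arrays were the lowest by a small margin, and the 95% interval of the LPS difference was −0.56 to −0.05 (−0.30, adjusted p = 0.122), or 0.17 with 75th percentile scaling. The calls with LPS of *Gins1* and *Gins4* were lost without 5 and 6 of the 6 arrays in turn (adjusted p = 0.0763 to 0.183 and 0.0517 to 0.14), LPS replicate 2 being the exception for *Gins1*. The *Gins4* calls were also lost with the replicate number as a block. With the inhibitor against untreated cells both were lost without any 1 of the 4 arrays compared (adjusted p = 0.0671 to 0.128 and 0.0814 to 0.144).

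PCNA is the ring-shaped clamp that holds polymerases on DNA, and replication factor C, encoded by *Rfc1* to *Rfc5*, opens and loads it. *Pcna* read 15.51 and 15.66 on the untreated arrays, 15.04 and 15.27 on the LPS arrays, and 15.43 and 15.66 on the LPS+USP7i arrays. The untreated and inhibitor arrays overlapped, and the LPS arrays were the lowest, an order that turned with 75th percentile scaling. Its differences were −0.43 with LPS (95% interval −0.81 to −0.05, adjusted p = 0.131), 0.39 for LPS+USP7i against LPS (adjusted p = 0.207), and −0.04 for LPS+USP7i against untreated cells (adjusted p = 0.966). With 75th percentile scaling the first and the last had the opposite sign, 0.16 and 0.36, and neither passed. With the replicate number as a block the first passed as lower (adjusted p = 0.0376).

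Of the 5 loader genes, 3 fell with LPS (*Rfc1*, *Rfc2*, and *Rfc4*). With *Pcna* counted in, the share lower was 50% of 6 genes, against 12.8% of all genes and 23.9% of those well above background on all arrays. *Rfc1*, the large subunit, read 12.31 and 12.43 on the untreated arrays, 10.07 and 10.55 on the LPS arrays, and 10.40 and 10.64 on the LPS+USP7i arrays. All 4 stimulated arrays were far below the untreated ones and overlapped each other. *Rfc1* fell by 2.06 with LPS (standard error 0.20, adjusted p = 0.00853), 4.16-fold, and by 1.85 with LPS+USP7i relative to untreated cells (adjusted p = 0.0145). *Rfc2* read 11.83 and 11.74 on the untreated arrays, 11.03 and 10.92 on the LPS arrays, and 10.97 and 10.57 on the LPS+USP7i arrays, with the inhibitor arrays partly within the range of LPS. Its differences from untreated cells were −0.81 and −1.02 (standard error 0.16, adjusted p = 0.0388 and 0.0289). *Rfc4* read 10.43 and 10.56 on the untreated arrays, 9.04 and 9.49 on the LPS arrays, and 8.99 and 9.22 on the LPS+USP7i arrays, and its stimulated arrays again overlapped below the untreated ones. It differed by −1.23 with LPS and by −1.39 with LPS+USP7i (standard error 0.19, adjusted p = 0.0236 and 0.0228).

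*Rfc3* encodes a small subunit of the loader. Its probe at chr5:152448247-152450045 read 8.13 and 8.26 on the untreated arrays, 9.31 and 9.32 on the LPS arrays, and 7.42 and 8.07 on the LPS+USP7i arrays. The LPS arrays were the highest, and the inhibitor arrays were lower than both untreated arrays. *Rfc3* was 1.57 lower with LPS+USP7i than with LPS (log2 difference −1.57, standard error 0.24, adjusted p = 0.0388), 2.97-fold. The difference of 1.12 between LPS and untreated cells lay at the threshold (adjusted p = 0.0501) and passed in 8 of 17 alternatives (adjusted p from 0.00945 to 0.193). *Rfc5* read 11.07 and 11.36 on the untreated arrays, 10.76 and 10.77 on the LPS arrays, and 9.96 and 10.26 on the LPS+USP7i arrays. The LPS arrays lay below the untreated ones and the inhibitor arrays below both. *Rfc5* was lower with LPS+USP7i than in untreated cells (−1.11, standard error 0.16, adjusted p = 0.0247), and its differences of −0.45 with LPS and −0.66 for the inhibitor against LPS did not pass (adjusted p = 0.159 and 0.0961). A dimmer *Rfc5* probe differed by −0.30 between LPS+USP7i and untreated cells and did not pass (adjusted p = 0.239).

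Several of these calls were lost without single arrays, also without arrays outside the comparison, where the difference itself cannot move. The LPS call of *Rfc1* was lost without either untreated array (adjusted p = 0.0506 to 0.0583, differences −2.12 and −1.99), that of *Rfc2* without any 1 of the untreated or LPS arrays (adjusted p = 0.125 to 0.161), and that of *Rfc4* without any array except LPS replicate 2 (adjusted p = 0.0524 to 0.119). Between LPS+USP7i and LPS, *Rfc3* lost its call without any 1 of the untreated or LPS arrays (adjusted p = 0.108 to 0.143, differences −1.58 to −1.56) and with the replicate number as a block (adjusted p from 0.00485 to 0.143 over all alternatives). Against untreated cells with the inhibitor, the *Rfc1* call was lost without either untreated array or LPS+USP7i replicate 1 (adjusted p = 0.0593 to 0.0841) and that of *Rfc2* without any 1 of the untreated or LPS arrays (adjusted p = 0.0759 to 0.134). In the same comparison *Rfc4* lost its call without any 1 of the 4 arrays compared (adjusted p = 0.0674 to 0.115) and *Rfc5* without any array except LPS+USP7i replicate 2 (adjusted p = 0.0684 to 0.098).

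DNA polymerase α and primase start each new strand, and polymerases δ and ε extend it. Of these 6 genes, *Prim1* and *Pold1* fell with LPS (33.3%, against 12.8% of all genes and 23.9% of those well above background on all arrays). Between LPS+USP7i and LPS the number called was 0 with limma (1 lower at an unadjusted p under 0.05). *Prim1* and *Pold1* were also lower with LPS+USP7i than in untreated cells (33.3%, against 8.72% and 16.3%). *Pold1*, the catalytic subunit of polymerase δ, read 11.27 and 11.38 on the untreated arrays, 9.46 and 9.77 on the LPS arrays, and 9.66 and 9.55 on the LPS+USP7i arrays. All stimulated arrays were more than 1 log2 unit below the untreated ones. It fell by 1.71 with LPS and by 1.72 with LPS+USP7i (standard error 0.13, adjusted p = 0.00584 and 0.00849). The stimulated groups differed by −0.01, with a 95% interval of −0.38 to 0.35. *Prim1*, the catalytic primase subunit, read 10.23 and 10.49 on the untreated arrays, 9.16 and 9.37 on the LPS arrays, and 9 and 9.37 on the LPS+USP7i arrays. The stimulated arrays again lay together below the untreated ones. It differed by −1.10 with LPS and by −1.18 with LPS+USP7i (standard error 0.18, adjusted p = 0.0277 and 0.0298). The LPS call of *Pold1* held without any single array, and that of *Prim1* was lost without any 1 of the 4 arrays compared (adjusted p = 0.0808 to 0.123). Against untreated cells with the inhibitor, *Pold1* lost its call without either untreated array (adjusted p = 0.0508 to 0.0579) and *Prim1* without any array except LPS+USP7i replicate 2 (adjusted p = 0.0718 to 0.129).

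The other 4 genes of the group passed in no comparison (for LPS+USP7i against untreated cells *Pola1*, *Pola2*, *Prim2*, and *Pole* passed in 1, 4, 5, and 6 of 17 alternatives, the last 2 also with the replicate number as a block, and with LPS *Pole* passed with that block and *Prim2* with the mean over its probes, 1 of which was not well above background there), and in each of them LPS+USP7i replicate 1 was the lowest array. *Pola1*, the catalytic subunit of polymerase α, read 8.82 and 8.91 on the untreated arrays, 8.71 and 8.99 on the LPS arrays, and 7.55 and 8.47 on the LPS+USP7i arrays. The untreated and LPS arrays overlapped, and the difference between LPS+USP7i and LPS was −0.84 (95% interval −1.79 to 0.11, adjusted p = 0.271). *Pola2* read 6.63 and 6.68 on the untreated arrays, 6.51 and 6.53 on the LPS arrays, and 5.79 and 6.25 on the LPS+USP7i arrays, with a difference of −0.50 for the same comparison (adjusted p = 0.199). *Prim2*, the large primase subunit, read 9.41 and 9.64 on the untreated arrays, 9.02 and 9.36 on the LPS arrays, and 8.22 and 8.86 on the LPS+USP7i arrays and differed by −0.65 (adjusted p = 0.285). *Pole*, the catalytic subunit of polymerase ε, read 9.74 and 10.16 on the untreated arrays, 8.72 and 9.32 on the LPS arrays, and 7.83 and 8.58 on the LPS+USP7i arrays. Its difference between LPS+USP7i and untreated cells was −1.75, with a 95% interval of −2.78 to −0.72 (adjusted p = 0.0617). The inhibitor arrays lay far apart for *Pole* and for *Pola1*.

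Replication protein A coats single-stranded DNA at the fork, and all 3 of its genes fell with LPS. *Rpa1* read 13.19 and 13.24 on the untreated arrays, 12.002 and 12.22 on the LPS arrays, and 12.52 and 12.71 on the LPS+USP7i arrays. The 3 groups did not overlap, with LPS lowest. *Rpa1* fell by 1.10 with LPS and by 0.60 with LPS+USP7i relative to untreated cells (standard error 0.12, adjusted p = 0.00985 and 0.0489), and it differed by 0.50 between LPS+USP7i and LPS (adjusted p = 0.0885). *Rpa2* read 8.93 and 9.001 on the untreated arrays, 8.22 and 8.34 on the LPS arrays, and 7.86 and 7.90 on the LPS+USP7i arrays, which placed LPS+USP7i lowest, without overlap. Its differences were −0.69 with LPS, −0.40 for LPS+USP7i against LPS, and −1.09 against untreated cells (standard error 0.07, adjusted p = 0.00995, 0.0544, and 0.00697). *Rpa3*, read at chr6:8206247-8206753, gave 10.84 and 10.90 on the untreated arrays, 9.75 and 9.93 on the LPS arrays, and 9.18 and 9.32 on the LPS+USP7i arrays. The groups again formed 3 steps, with LPS+USP7i lowest. *Rpa3* fell by 1.03 with LPS (standard error 0.10, adjusted p = 0.00841), was 0.59 lower again with LPS+USP7i than with LPS (log2 difference −0.59, adjusted p = 0.0475), and in all was 3.07-fold below untreated cells (adjusted p = 0.00644).

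Whether the subunits of replication protein A differed from each other in their response to the inhibitor was not tested. The LPS calls of *Rpa1* and *Rpa2* were lost without either untreated array (adjusted p = 0.0577 to 0.0648 and 0.0524 to 0.0634) and that of *Rpa3* without untreated replicate 2 (adjusted p = 0.0577, 0.000509 to 0.0577 over all alternatives). The inhibitor call of *Rpa3* relative to LPS was lost without any 1 array (adjusted p = 0.0767 to 0.138). It was also lost with 75th percentile scaling, the deposited table, a log2 difference of at least 1, and the fit of 2 groups, and passed in 7 of 17 alternatives (adjusted p from 0.0159 to 0.138). Relative to untreated cells with the inhibitor, the call of *Rpa1* was lost without any 1 array (adjusted p = 0.0688 to 0.193) and that of *Rpa2* without untreated replicate 2 (adjusted p = 0.0513, 0.000816 to 0.0513 over all alternatives), whereas that of *Rpa3* held. This *Rpa1* call passed in 5 of 17 alternatives and was lost with 75th percentile scaling as well.

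FEN1 trims the flaps of Okazaki fragments and LIG1 seals them, and both genes fell with LPS. *Fen1* read 12.69 and 12.81 on the untreated arrays, 11.44 and 11.50 on the LPS arrays, and 11.52 and 11.64 on the LPS+USP7i arrays. All stimulated arrays were more than 1 log2 unit below the untreated ones and close to each other. *Fen1* fell by 1.28 with LPS and by 1.17 with LPS+USP7i (standard error 0.08, adjusted p = 0.00458 and 0.00785). The difference between LPS+USP7i and LPS was 0.11, with a 95% interval of −0.12 to 0.34. *Lig1* read 13.12 and 13.17 on the untreated arrays, 12.16 and 12.33 on the LPS arrays, and 12.28 and 12.11 on the LPS+USP7i arrays, with overlapping LPS and LPS+USP7i arrays below the untreated ones. It differed by −0.90 with LPS and −0.95 with LPS+USP7i (standard error 0.10, adjusted p = 0.0116 and 0.0144), and by −0.05 between the stimulated groups (95% interval −0.33 to 0.24). The LPS call of *Fen1* held without any single array, and that of *Lig1* was lost without either untreated array or LPS replicate 1 (adjusted p = 0.05 to 0.0722). With the inhibitor against untreated cells, *Fen1* lost its call without untreated replicate 2 (adjusted p = 0.0514, 0.000778 to 0.0514 over all alternatives) and *Lig1* without either untreated array (adjusted p = 0.0746 to 0.0836).

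Deoxynucleotides come from ribonucleotide reductase (*Rrm1* and *Rrm2*), thymidylate synthase (*Tyms*), and thymidine kinase (*Tk1*). *Rrm2*, the subunit whose supply limits the enzyme in S phase, read 11.68 and 12.20 on the untreated arrays, 10.13 and 10.45 on the LPS arrays, and 9.99 and 10.61 on the LPS+USP7i arrays. The stimulated groups overlapped each other below the untreated arrays. *Rrm2* fell with LPS and with LPS+USP7i, with differences of −1.65 and −1.64 from untreated cells (standard error 0.31, adjusted p = 0.0375 and 0.0473). *Rrm1*, the large subunit, read 11.49 and 11.95 on the untreated arrays, 10.87 and 11.17 on the LPS arrays, and 10.05 and 10.46 on the LPS+USP7i arrays, with untreated cells highest and LPS+USP7i lowest. Its difference of −1.47 between LPS+USP7i and untreated cells passed (standard error 0.25, adjusted p = 0.0362), and those of −0.70 with LPS and −0.76 for LPS+USP7i against LPS did not (adjusted p = 0.163 and 0.176), except with the replicate number as a block and, for the first, with normexp.

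*Tyms*, whose product makes thymidylate for DNA, was the gene of this group that rose. Its probe at chr5:30385578-30385637 read 6.12 and 5.94 on the untreated arrays, 7.05 and 7.39 on the LPS arrays, and 6.81 and 6.39 on the LPS+USP7i arrays. Every stimulated array was above both untreated arrays, and LPS was highest. *Tyms* rose by 1.20 with LPS (standard error 0.21, adjusted p = 0.0313), 2.29-fold, and differed by −0.62 between LPS+USP7i and LPS (adjusted p = 0.19). *Tk1*, the salvage enzyme for thymidine, read 10.56 and 10.89 on the untreated arrays, 9.36 and 9.94 on the LPS arrays, and 8.71 and 9.36 on the LPS+USP7i arrays. Untreated cells were highest, and the nearest arrays of the stimulated groups had the same rounded value. The differences were −1.08 with LPS (95% interval −1.99 to −0.16, adjusted p = 0.122) and −1.69 with LPS+USP7i (95% interval −2.61 to −0.78, adjusted p = 0.0512), and neither passed except under some alternatives, among them the replicate block (4 and 8 of 17). The LPS calls of *Rrm2* and *Tyms* were lost without any 1 of the 4 arrays compared (adjusted p = 0.0851 to 0.152 and 0.074 to 0.144), and that of *Tyms* with the replicate number as a block. With the inhibitor against untreated cells, those of *Rrm1* and *Rrm2* were lost without any 1 array (adjusted p = 0.0716 to 0.129 and 0.0657 to 0.171).

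Cyclin E with CDK2 drives cells into S phase, and E2F1 is a factor that transcribes many of the genes above. The *Ccne1* probe at chr7:38882937-38882960 read 10.15 and 10.47 on the untreated arrays, 11.75 and 11.44 on the LPS arrays, and 9.52 and 9.80 on the LPS+USP7i arrays. LPS arrays were the highest and inhibitor arrays the lowest, without overlap. *Ccne1* rose by 1.28 with LPS (standard error 0.19, adjusted p = 0.0214), 2.44-fold. It was 1.93 lower with LPS+USP7i than with LPS (log2 difference −1.93, adjusted p = 0.0198), 3.82-fold. Against untreated cells the inhibitor difference was −0.65 (95% interval −1.18 to −0.12, adjusted p = 0.127). A dimmer *Ccne1* probe gave the same order, with 1.57 for LPS and −2.77 for LPS+USP7i against LPS (adjusted p = 0.0333 and 0.0206). For that probe 1 of 2 inhibitor arrays was well above background, which limits the second value. The LPS call was lost without any 1 of the 4 arrays compared (adjusted p = 0.0548 to 0.0915), and the inhibitor call without any array except LPS+USP7i replicate 2 (adjusted p = 0.0557 to 0.0716).

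*E2f1* read 11.55 and 11.41 on the untreated arrays, 10.59 and 10.46 on the LPS arrays, and 10.92 and 10.64 on the LPS+USP7i arrays. The untreated arrays were highest, LPS lowest, and LPS+USP7i in between. *E2f1* fell by 0.95 with LPS and by 0.70 with LPS+USP7i relative to untreated cells (standard error 0.13, adjusted p = 0.0181 and 0.0459). Its difference of 0.25 between LPS+USP7i and LPS did not pass (adjusted p = 0.412). The LPS call was lost without any 1 of the 4 arrays compared (adjusted p = 0.0685 to 0.0912), and that against untreated cells with the inhibitor without any 1 array (adjusted p = 0.0528 to 0.182). *Ccne2*, for the second cyclin E, read 2.49 and 1.88 on the untreated arrays, 1.89 and 1.93 on the LPS arrays, and 1.88 and 1.91 on the LPS+USP7i arrays. None of these values was well above background, so no fold is given for it.

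Several probes were present for 9 of the 39 genes. For *Mcm3*, *Rfc4*, and *Rpa1* the second probe also passed with LPS (−1.31, −1.40, and −0.98). That of *Rpa1* did not pass for LPS+USP7i against untreated cells (−0.39, adjusted p = 0.177), where the representing probe did. A dimmer *Tk1* probe passed in that comparison (−1.42, adjusted p = 0.0438), where the representing probe did not. The remaining *Tk1* probe and 1 of 2 further *Pole* probes were not well above background on any array. The second *Prim2* probe was well above background on the untreated arrays only and passed in no comparison (adjusted p = 0.133 with LPS and 0.187 with LPS+USP7i against untreated cells). The other *Pole* probe, well above background on both untreated arrays and on 1 array of each other group, passed in no comparison.

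Other genes of the same processes were read from 5 lists of 102 genes in all. With LPS, 34 of the 102 were lower (33.3%, against 12.8% of all genes and 23.9% of those well above background on all arrays) and 6 were higher (5.88%, against 7.98% and 14.1%). Between LPS+USP7i and LPS 12 were lower (11.8%, against 4.28% and 7.44%) and 5 higher (4.9%, against 5.51% and 9.74%). Against untreated cells with the inhibitor 37 were lower (36.3%, against 8.72% and 16.3%) and 4 higher (3.92%, against 6.15% and 10.8%). The lists were other origin and helicase factors (5 of 15 lower with LPS), fork and chromatin assembly factors (11 of 26), nucleotide metabolism enzymes (5 of 27, or 18.5%), G1/S regulators (11 of 26), and replication checkpoint genes (2 of 8). Geminin, which blocks CDT1, is encoded by *Gmnn*, which read 9.56 and 9.52 on the untreated arrays, 6.97 and 6.93 on the LPS arrays, and 7.48 and 7.42 on the LPS+USP7i arrays. As with *Cdt1*, its LPS arrays were lowest. It differed by −2.59 with LPS (adjusted p = 0.00227) and by 0.50 for LPS+USP7i against LPS (adjusted p = 0.0265). The latter call was lost in 10 of 17 alternatives, among them the mean and the median over its probes (adjusted p from 0.0205 to 0.672), and the LPS call with the median probe (−1.54, adjusted p from 2.68e-05 to 0.0962 over all alternatives). *Ticrr* (−3.44, with 1 of 2 LPS arrays well above background) and *Recql4* (−2.06) also fell with LPS, although the *Ticrr* call was lost without either untreated array. Over the alternatives the difference was −4.02 to −1.70 for *Ticrr* and −2.37 to −1.34 for *Recql4*. *Mcmbp*, for a protein that binds MCM subunits, was higher with LPS (0.61) and lower with the inhibitor (−1.22), and *Orc3* was also lower with the inhibitor (−0.60). The LPS call of *Mcmbp* was lost in 7 of 17 alternatives, which were the deposited table, the replicate block, a log2 difference of at least 1, and each of the 4 arrays compared left out (adjusted p from 0.00815 to 0.177). The *Orc3* call was lost in 8 of 17 (adjusted p from 0.00898 to 0.127).

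Among fork factors, *Clspn* was at least 2.7-fold lower with LPS, where it was not well above background, and *Dna2* (−2.68, with 1 of 2 LPS arrays well above background) and *Pole2* (−2.21) also fell. *Clspn* lost this call without any 1 of the 4 arrays compared (adjusted p from 0.00171 to 0.0954). The calls of *Dna2* and *Pole2* were lost in the fit of 2 groups and without any array except LPS replicate 2, and that of *Dna2* also with the replicate block (adjusted p from 0.00217 to 0.165 and from 0.00117 to 0.178). Over the alternatives the difference was −3.66 to −0.75 for *Clspn*, −3.33 to −1.20 for *Dna2*, and −2.75 to −1.32 for *Pole2*. The smallest *Clspn* difference lay under the bound given for it. *Timeless*, for a fork protection protein, was −2.65 from LPS with the inhibitor (adjusted p = 0.02), and *Dnmt1*, the maintenance DNA methyltransferase, was 0.65 from it (adjusted p = 0.0264). *Samhd1*, whose product degrades deoxynucleotides, rose with LPS (0.93) and was lower with the inhibitor than with LPS (−1.48, adjusted p = 0.0193). *E2f2* fell by 4.61 with LPS and was 1.68 higher with LPS+USP7i than with LPS (adjusted p = 0.00321 and 0.0294). The latter call was lost in 7 of 17 alternatives, among them the replicate number as a block, with differences of 1.32 to 1.95. *Skp2*, for an E3 ligase subunit that targets p27, fell by 2.61 with LPS and was 1.29 higher with LPS+USP7i than with LPS (adjusted p = 0.00281 and 0.015). Of the 26 other G1/S regulators, 6 were lower and 3 higher with LPS+USP7i than with LPS. The share lower was 23.1%, against 4.28% of all genes and 7.44% of those well above background on all arrays. The share higher was 11.5%, against 5.51% and 9.74%. Cyclin D2 (*Ccnd2*) rose by 4.79 with LPS and differed by −3.26 between LPS+USP7i and LPS (adjusted p = 0.00184 and 0.00987). The pocket protein gene *Rbl1* (−2.39, adjusted p = 0.0265) and the repressor gene *E2f8* (−2.06, adjusted p = 0.0159) were also lower with the inhibitor than with LPS, and *E2f6* was higher (1.59, adjusted p = 0.0196). The CDK inhibitor p21 (*Cdkn1a*) rose by 2.495 with LPS. In the fit of only the 2 groups and without either untreated array, each of these calls between LPS+USP7i and LPS was lost, as was every such call on the array. The *Dnmt1* call was lost in 10 of 17 alternatives (adjusted p from 0.00637 to 0.0924). The *Samhd1* calls with LPS and between LPS+USP7i and LPS were each lost without any 1 array. The call between LPS+USP7i and LPS was also lost with the median probe of the gene.

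**Figure D5:**
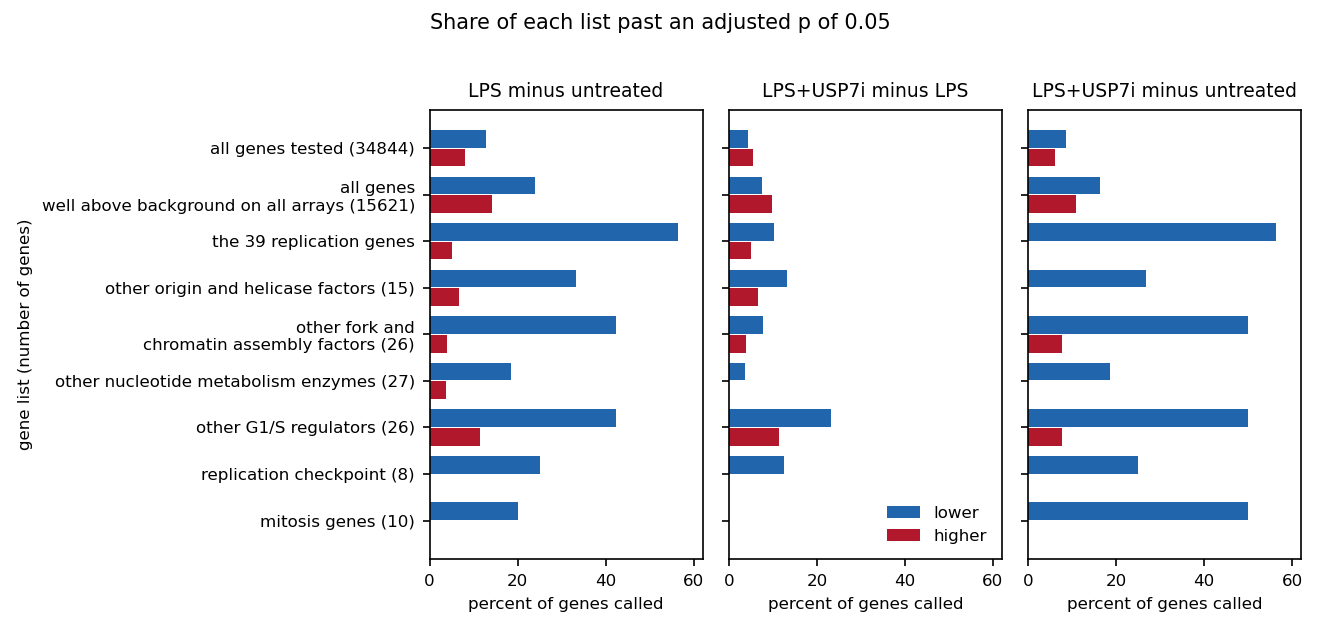
Percent of the genes of each list that were lower (blue) or higher (red) at an adjusted p of 0.05 in the 3 comparisons, with all genes tested and all genes well above background on every array as background; bars start at 0. The 39 replication genes have 56.4% lower with LPS, against 12.8% of all genes, and 10.3% lower with LPS+USP7i than with LPS, against 4.28% of all genes and 7.44% of those well above background on all arrays.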

How the data were processed

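Each RNA sample, labeled with Cy3, went on its own Agilent mouse array. The authors deposited scanner files holding an intensity for every spot, corrected for background by Agilent Feature Extraction 10.7.3.1, and a log2 table normalized across arrays. The submitters' processing notes name limma without its version, which the study's methods do give. The study's methods call genes at an adjusted p of 0.05 after quantile normalization.

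Here the processed signal of spots other than controls was set on the log2 scale and quantile-normalized, outlier spots were dropped, and spots were averaged per probe (55681 probes). One limma fit of 3 groups (lmFit and eBayes of version 3.58.1, run under R 4.3.3) took in all 6 arrays, with 3 residual and 1.05 prior degrees of freedom. Benjamini-Hochberg adjustment covered the 55680 probes testable in all groups, and the procedure was tested on simulated data. Counts over all genes use the 34843 gene names among them. Where neither array of a group was well above background, a bound replaced the fold, and where neither group was, no fold was given. Replicates correlated across 20721 bright probes (not independent of each other) with r = 0.996 (untreated), 0.993 (LPS), and 0.991 (LPS+USP7i), and the SD of their difference was 0.29, 0.34, and 0.40. No spot was saturated (0 spots). Probe positions are those of the files (mm9). The deposited values had medians of 5.07 to 5.10 and correlated with the normalized values at r = 0.986 to 0.988, and their exact scaling remains unknown.

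The members and lists were chosen with earlier results of these data known, and no test was made of a list. All 39 members were accounted for, with full values for those past the threshold in any comparison. Of every other list, at most the 3 lowest and 3 highest called genes per comparison were eligible to be named. Cell markers, *Ifit1*, and, between LPS+USP7i and LPS, *Il6* and *Il1b* fell outside this rule and were named after their values were seen. *Ticrr*, *Pclaf*, *Rad9a*, and *Adgre1* were found through RefSeq accessions. Promoter windows are those of RefSeq. Alternatives were normexp background correction (offset 50), 75th percentile scaling, outlier spots kept, the deposited log2 table, dim probes left out, a prior with a trend, the replicate number as a block, fits of only the 2 groups compared, each array left out, other choices among the probes of a gene, and a minimum log2 difference of 1.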

Additional observations from a re-analysis of the deposited data

How the results depend on the processing

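The count of genes lower with LPS, 22, was 15 to 26 under the alternatives that kept all arrays and 8 to 19 without single arrays. The 2 genes higher with LPS were 1 (replicate block) to 4 (normexp background correction) with all arrays and 0 to 3 without single arrays. The median with LPS was −0.67 with 75th percentile scaling, −0.81 with the mean over the probes of a gene, and −0.93 to −0.79 without single arrays. Between LPS+USP7i and LPS, the 4 genes lower became 3 with 75th percentile scaling, 2 with the deposited table, 2 with a log2 difference of at least 1, 0 in the fit of 2 groups, 5 with normexp, 6 with dim probes left out, and 0 to 3 without single arrays. The 2 genes higher became 3 with normexp, 75th percentile scaling, the deposited table, dim probes left out, the prior with a trend, and the mean over probes, 1 with the replicate block or a log2 difference of at least 1, 0 in the fit of 2 groups, and 0 to 1 without single arrays. The median there was −0.30 with 75th percentile scaling, −0.23 with dim probes left out, −0.13 with the median probe of a gene, and −0.28 to −0.13 without single arrays. Between LPS+USP7i and untreated cells, the 22 genes lower were 14 (fit of 2 groups) to 27 (normexp, and dim probes left out) with all arrays and 4 to 17 without single arrays. The median there was −0.90 with normexp, −0.92 with 75th percentile scaling, −0.95 with the mean over probes, −1.02 with the median probe, and −1.26 to −0.96 without single arrays. A group left with 1 array was assumed to vary like the others. The cause of these shifts was not tested, except that fits of 2 groups and of 5 arrays estimate the spread from fewer arrays.

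The replicate numbers are shared by the groups, but the labels do not tie a number to an experiment. Differences between replicates correlated across probes with r = 0.468 (untreated and LPS), 0.398 (untreated and LPS+USP7i), and 0.422 (LPS and LPS+USP7i). With the replicate block 25 genes were lower and 1 was higher with LPS, 4 were lower and 1 was higher for LPS+USP7i against LPS, and 24 were lower and 0 higher for LPS+USP7i against untreated cells (1 at an unadjusted p under 0.05). The replicate block ended the calls of *Tyms*, *Mcm6*, and *Gins4* with LPS, of *Cdc6* and *Rfc3* for LPS+USP7i against LPS, and of *Cdc6*, *Mcm6*, and *Gins4* for LPS+USP7i against untreated cells. It added calls of lower signal for *Mcm5*, *Pcna*, *Pole*, *Rrm1*, and *Tk1* with LPS, for *Rrm1* between LPS+USP7i and LPS, and for *Mcm5*, *Gins2*, *Prim2*, *Pole*, and *Tk1* between LPS+USP7i and untreated cells (*Pcna* was slightly higher with LPS under 75th percentile scaling).

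Over the 17 alternatives no call of the 39 genes changed direction. Of their LPS results 566 kept their side of the threshold, 74 lost and 22 gained a call. For LPS+USP7i against LPS these numbers were 604, 46, and 12, and against untreated cells 536, 93, and 33. Among the other lists, *Rad1* was lower with LPS and with LPS+USP7i than in untreated cells (−1.21 and −0.98), and the median probe of the gene read 0.56 and 0.56, so its probes disagree, and those of *Gmnn* differ in size. The deposited table ended the calls of *Gins4* and *Rpa2* with LPS, of *Mcm10* and *Rpa3* for LPS+USP7i against LPS, and of *Gins4*, *Rpa1*, and *E2f1* for LPS+USP7i against untreated cells. Signal over background limits *Cdc6* and *Ccne2*.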

Other observations

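Genes of mitosis, which act after replication, were read from a list of 10. With LPS, *Cdc20* (−1.88) and *Aurka* (−1.33) were lower than in untreated BMDMs (adjusted p = 0.0255 and 0.0447 with limma) and 0 were higher with limma or at an unadjusted p under 0.05. The share lower was 20%, against 12.8% of all genes and 23.9% of those well above background on all arrays. Both calls were lost in the fit of 2 groups and without any array except untreated replicate 1, and that of *Aurka* also with the replicate number as a block (adjusted p from 0.00394 to 0.106 for *Cdc20* and 0.00582 to 0.172 for *Aurka* over all alternatives). For LPS+USP7i against LPS 0 of the 10 passed in either direction, although 4 were lower at an unadjusted p under 0.05. For LPS+USP7i against untreated cells 5 were lower, among them *Plk1* (−2.71), *Kif11* (−2.62), and *Cdc20* (−2.37). That share of 50% compares with 8.72% of all genes and 16.3% of those well above background on all arrays. The *Plk1* call was lost without any 1 array and in the fit of 2 groups (adjusted p from 0.00373 to 0.119). *Kif11* lost its call without any 1 of the 4 arrays compared (adjusted p from 0.00573 to 0.146), and *Cdc20* without untreated replicate 2 or either LPS+USP7i array (adjusted p from 0.0022 to 0.0814). *Plk1*, a kinase of mitotic entry, read 11.24 and 12.08 on the untreated arrays, 9.90 and 10.64 on the LPS arrays, and 8.69 and 9.21 on the LPS+USP7i arrays, which placed LPS+USP7i lowest without overlap. *Kif11*, a motor of the mitotic spindle, read 7.64 and 8.05 on the untreated arrays, 6.12 and 7.23 on the LPS arrays, and 5.14 and 5.31 on the LPS+USP7i arrays, in the same order. The median difference of the 10 genes was −0.998 with LPS, −0.87 for LPS+USP7i against LPS, and −1.50 for LPS+USP7i against untreated cells.

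Inflammatory genes served as a check that the cells had responded. All 5 of *Tnf*, *Il6*, *Il1b*, *Nos2*, and *Ifit1* rose with LPS, by 5.82 to 11.86. Between LPS+USP7i and LPS all 5 had differences below 0 (median −2.55), 4 passed at an unadjusted p under 0.05, and 2 passed with limma. With LPS+USP7i *Tnf* (−0.78) and *Nos2* (−4.80) were lower than with LPS (adjusted p = 0.0382 and 0.02). The *Tnf* call was lost in 10 of 17 alternatives, among them the deposited table, the replicate block, and every array left out (adjusted p from 0.00508 to 0.138). That of *Nos2* was lost in the fit of 2 groups and without any 1 of the untreated or LPS arrays (adjusted p from 0.000653 to 0.0805). The differences of *Il6* (−2.55), *Il1b* (−3.82), and *Ifit1* (−0.79) did not pass (adjusted p = 0.0831, 0.0607, and 0.223).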
